A study of Mus musculus with 6 samples.

Results

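DNA methylation is written, copied and erased by a small set of enzymes, and several of their genes are recurrently mutated in acute myeloid leukemia (AML). The 10 genes described here were chosen by name and cover that machinery, the isocitrate dehydrogenases and, outside DNA methylation, Dot1l. They were the isocitrate dehydrogenases Idh1 and Idh2, the DNA methyltransferases Dnmt1, Dnmt3a and Dnmt3b, the methylcytosine dioxygenases Tet1, Tet2 and Tet3, the Dnmt1 recruiting factor Uhrf1 and the H3K79 methyltransferase Dot1l. All 10 were found in the table of 54838 gene identifiers, and all 10 were among the 11092 genes with enough reads to be tested.

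The cells came from I1DN, a mouse AML made by transducing fetal liver hematopoietic progenitors with constructs for IDH1R132H, DNMT3AR882H and NrasG12D, on a C57BL/6 background. Both groups carried all of these alleles. Frozen cells of a moribund mouse were transplanted into irradiated Ptprca recipients, so the samples stem from 1 leukemia as far as the methods state, and host cells may remain. AML cells were sorted from bone marrow and spleen of 3 mice given Vehicle and 3 mice given AG636, an inhibitor of the pyrimidine synthesis enzyme DHODH, by oral gavage b.i.d. at 100 mg/kg. For I1DN the study's text gives the sorted cells as cKit+CD11b-, an immature population. The labels give neither the age of the mice nor the length of treatment, and the study's legends disagree on that length. Each sample was a separate mouse, and the question was how AG636 changed transcript levels in these cells.

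In normal cells IDH1 and IDH2 make 2-oxoglutarate, a cosubstrate that the TET enzymes use to oxidise 5-methylcytosine. The R132H form of IDH1 makes 2-hydroxyglutarate instead, which inhibits TET enzymes and other 2-oxoglutarate-dependent dioxygenases. DNMT3A and DNMT3B place new methyl groups, DNMT1 copies them after replication with the help of UHRF1, and R882H impairs the activity of DNMT3A.

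The positions of the mutated residues in the normal mouse genes are shown because they define the model. In each line the arginine codon is in capitals, with 4 codons on either side.
Idh1, codon 132, exon 3 of 9, GRCm38 chr1:65170965-65170991, minus strand: atcatcattggcCGAcatgcatatggg
Dnmt3a, the codon that matches human residue 882, exon 23 of 23, GRCm38 chr12:3907640-3907666, plus strand: tccaacatgagcCGCttggcgaggcag
The kit reads transcript 3' ends, and counts per gene do not show which allele was transcribed. The sequences of the constructs were not used here, so the levels of Idh1 and Dnmt3a below are no check of the transgenes. What part of them, if any, came from the constructs was not tested.

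The Tet promoters are shown because the Tet family holds the 1 gene of the 10 that passed the test, Tet2. Each run holds the 250 bases before the RefSeq start site in GRCm38.p6, with CpG dinucleotides, the sites of DNA methylation, in capitals.
Tet1, chr10:62887325-62887574, minus strand: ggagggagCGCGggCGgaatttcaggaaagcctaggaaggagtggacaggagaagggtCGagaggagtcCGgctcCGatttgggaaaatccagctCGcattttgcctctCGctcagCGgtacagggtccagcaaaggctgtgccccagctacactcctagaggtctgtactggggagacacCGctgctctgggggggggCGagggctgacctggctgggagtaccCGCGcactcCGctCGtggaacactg
Tet2, chr3:133544391-133544640, minus strand: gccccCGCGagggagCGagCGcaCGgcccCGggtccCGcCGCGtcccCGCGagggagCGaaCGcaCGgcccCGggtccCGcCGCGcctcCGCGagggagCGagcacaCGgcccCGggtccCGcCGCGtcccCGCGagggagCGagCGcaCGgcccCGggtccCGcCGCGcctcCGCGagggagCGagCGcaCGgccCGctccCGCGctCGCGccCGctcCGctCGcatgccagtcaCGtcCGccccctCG
Tet3, chr6:83441679-83441928, minus strand: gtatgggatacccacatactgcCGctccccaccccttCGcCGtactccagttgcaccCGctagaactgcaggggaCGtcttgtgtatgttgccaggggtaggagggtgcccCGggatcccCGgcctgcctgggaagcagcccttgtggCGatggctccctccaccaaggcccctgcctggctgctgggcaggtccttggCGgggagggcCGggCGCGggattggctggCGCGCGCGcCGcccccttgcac
The Tet2 window held 51 CpG, more than 99.9% of the 32851 RefSeq mouse promoters of this length, against 17 in Tet3 and 15 in Tet1. The median promoter held 6. The RefSeq start of Tet2 lies 749 bases inside the gene as counted, and those of Tet1 and Tet3 lie 21672 and 17406 bases inside, so other start sites may be in use. DNA methylation itself was not measured.

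Promoter windows of the other genes held 44 CpG for Dot1l, 38 for Dnmt3a, 21 for Dnmt3b, 18 for Idh1, 17 for Idh2, 10 for Uhrf1 and 2 for Dnmt1. Some of these genes have several RefSeq starts, and the Dnmt1 windows ranged from 2 to 26 CpG. Of 6 motifs searched on both strands, CCAATC was in 4 of the 10 windows and in 14.6% of all promoters. The E2F letters TTTNNCGC were in 1 window, that of Uhrf1, and in 4.28% of all promoters. The YY1 letters CCATNTT (12.4% of all promoters), CACGTG (6.02%), TGACGTCA (1.55%) and CCGGAAGT (2.88%) were in 0 of the 10.

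Libraries held 4634963 to 7906589 counts, and a count of 3 corresponded to 0.391 to 0.635 CPM, the counts of a gene scaled to library size with TMM factors. Vehicle replicate 1 and AG636 replicate 2 stood apart from the other 4 libraries. A list of 15 genes was drawn up for the sorted leukemic cells and is called the progenitor list here. It includes Itgam, Fcgr3, Ptprc and Nras, so it is not confined to genes of immature cells. Its summed levels in Vehicle 1 and AG636 2 were 2875 and 2510 CPM, against 4780 to 5911 CPM elsewhere. Granule protein genes carried most of that difference, and Mpo, the myeloperoxidase gene, was at 1248 and 615 CPM in these libraries against 1697 to 2764 CPM in the others. Cd34, Fcgr3, Itgam, Myb, Spi1 and Cebpa of the list were also lowest of their group in both libraries. Kit was highest of its group in Vehicle 1 (43.0 CPM against 31.7 and 40.8) and lowest in AG636 2 (37.2 against 46.1 and 44.6). Nras was likewise highest in Vehicle 1 and lowest in AG636 2, and Ptprc was lowest in Vehicle 1 alone. Flt3 was lowest in neither library, and Ly6a was highest of its group in both (16.4 and 59.1 CPM). Both libraries also had the highest erythroid and megakaryocyte sum of their group (7219 and 5352 CPM). Mpo was singled out after its values were seen. Kit, which encodes the sort marker cKit, averaged 38.5 CPM with Vehicle and 42.6 with AG636 (adjusted p = 0.550). Itgam, which encodes CD11b, averaged 19.1 and 44.0 CPM (log2 fold change 1.21, adjusted p = 0.0219), and lost its call without Vehicle 1, Vehicle 2, AG636 1 or AG636 3 (adjusted p 0.0530 to 0.0814). Fewer cells of a type and less RNA per cell cannot be told apart in such bulk samples.

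Markers of other cells moved with treatment as well. The summed level of 11 mature neutrophil genes was 1086 to 2454 CPM with Vehicle and 2999 to 6043 with AG636, and 8 of the 11 were called higher. The sum of 11 macrophage genes was 52.3 to 68.3 and 130 to 160 CPM, led by Cd68, which rose from 27.6 to 81.6 CPM (log2 fold change 1.57, adjusted p = 0.00298). Of these 11 genes, 4 had too few reads to be tested. Among the 7 tested, 2 were called, both higher (28.6%, against 21.3% of all genes tested), and 1 had a log2 fold change below 0. The sum of 18 erythroid and megakaryocyte genes overlapped between the groups (3295 to 7219 and 4082 to 5352 CPM), as did that of 9 B cell genes (16.9 to 32.7 and 32.6 to 48.0 CPM) and 9 T and NK cell genes (193 to 333 and 258 to 492 CPM). Each marker gene had at least 1 count in some library, but 6 of the 9 B cell genes and 8 of the 9 T and NK cell genes had too few reads to be tested. The part of these cells in the results below was not tested.

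Tet2 was the only one of the 10 genes whose change passed the test, and it was higher with AG636. That is 10% of the genes, where 21.3% of all genes tested were called, 10.3% higher and 11% lower. With edgeR, 3 of the 10 had an unadjusted p under 0.05, as did 4112 of the 11092 genes tested. The median log2 fold change of the 10 was 0.01, against 0.03 over all genes tested, with 6 above 0 and 4 below. In 5 of the 10 the CPM of the groups did not overlap, as in 41.1% of all genes tested. For any single gene, 3 mice against 3 cannot give an exact permutation p under 0.1.

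**Figure D1:**
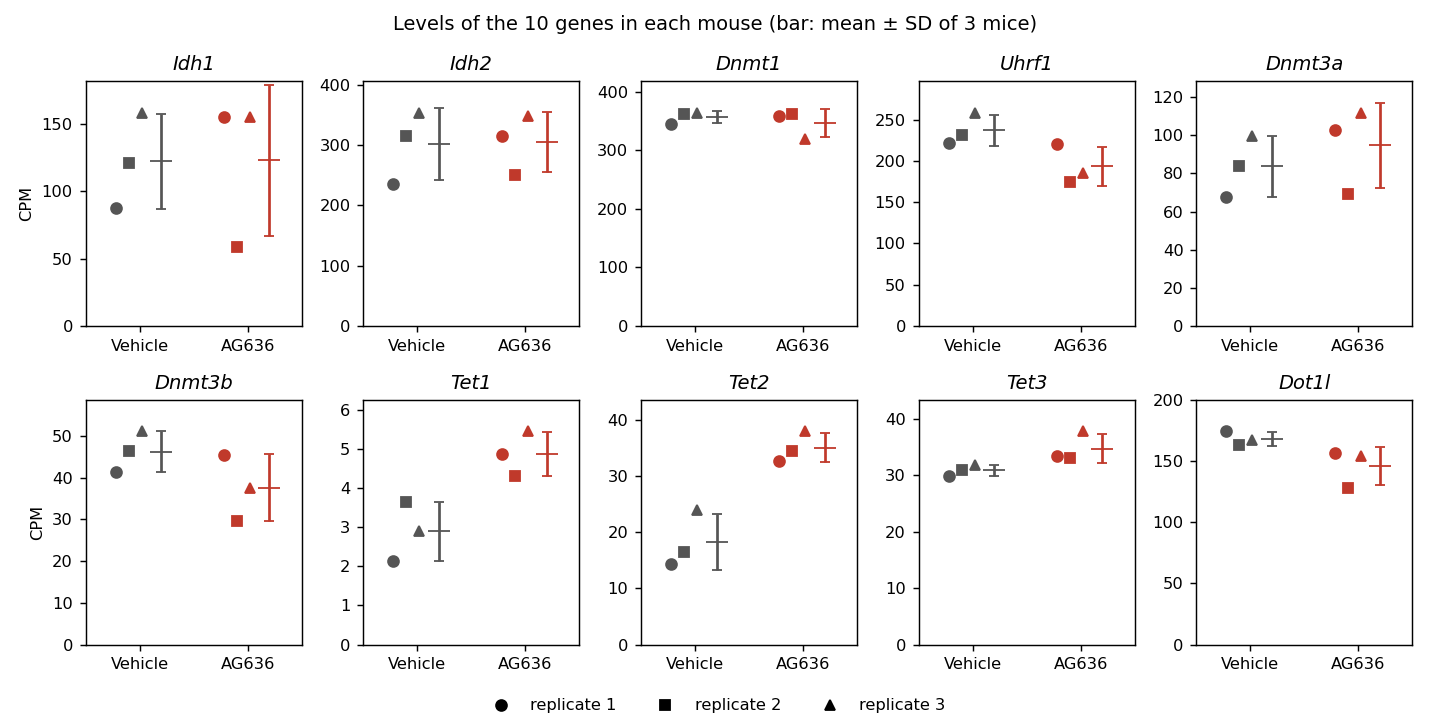
CPM of each gene in each mouse on linear axes that start at 0, with Vehicle in grey and AG636 in red, symbols for the replicate number, and bars for mean ± SD (n = 3). The Tet2 panel has all AG636 mice between 32.8 and 38.0 CPM and all Vehicle mice at or below 24.0 CPM.

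Tet2 (ENSMUSG00000040943, GRCm38 chr3:133463679-133545139, minus strand) encodes the TET enzyme most often mutated in myeloid disease. Its level was 14.4, 16.4 and 24.0 CPM in the Vehicle mice and 32.8, 34.5 and 38.0 CPM in the AG636 mice. Every treated mouse was above every control, and the lowest treated value exceeded the highest control value. The means were 18.3 ± 5.03 and 35.1 ± 2.64 CPM (SD, n = 3), a ratio of 1.92. The log2 fold change was 0.95 (SE 0.21, 95% interval 0.49 to 1.42, adjusted p = 0.0137), which ranked 814 by p among the 11092 genes. Tet2 was called in all 7 alternative fits with another tool, scaling, filter or block. It lost its call without Vehicle 2 (0.87, adjusted p = 0.0582) and without AG636 3 (0.89, adjusted p = 0.0546), and kept it without Vehicle 1 and AG636 2 together (0.83, adjusted p = 0.0284). On the opposite strand the gene shares 43 bases with Gm42567, which had 5 counts over all libraries against 847 for Tet2.

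Tet1 (chr10:62804570-62908996, minus strand) and Tet3 (chr6:83362373-83459084, minus strand) encode the other two members of the family. Tet1 was low, with 12, 28 and 14 counts in the Vehicle libraries and 23, 21 and 29 in the AG636 libraries. As CPM these were 2.13, 3.65 and 2.92 with Vehicle and 4.87, 4.31 and 5.45 with AG636. The groups did not overlap, and the log2 fold change was 0.73 with a wide interval of 0.00068 to 1.46 (SE 0.33, adjusted p = 0.134).
Tet3 was at 29.9, 31.0 and 31.9 CPM with Vehicle and 33.4, 33.1 and 37.8 with AG636. These ranges did not overlap either, but the difference was small, with a log2 fold change of 0.17 (SE 0.15, 95% interval -0.16 to 0.50, adjusted p = 0.437).

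Dnmt1 (chr9:20907209-20959888, minus strand), which encodes the maintenance methyltransferase, had the tightest estimate of the 10 genes. It was at 345, 363 and 364 CPM with Vehicle and 359, 361 and 319 with AG636. The groups overlapped, and the log2 fold change was -0.04 (SE 0.11, 95% interval -0.28 to 0.19, adjusted p = 0.800), or 0.05 when scaled by library size alone.
Uhrf1 (chr17:56303321-56323486, plus strand), whose product binds hemimethylated DNA and brings DNMT1 to it, was at 221, 231 and 258 CPM with Vehicle and 220, 174 and 186 with AG636. AG636 replicate 1 lay just under the lowest Vehicle value, and the other treated mice lay well below it. The log2 fold change was -0.29 (SE 0.13, 95% interval -0.58 to -0.01), which did not pass the threshold after adjustment (adjusted p = 0.125).

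Dnmt3a (chr12:3806007-3914443, plus strand) and Dnmt3b (chr2:153649450-153687730, plus strand) encode the de novo methyltransferases. Dnmt3a was at 67.6, 83.8 and 99.8 CPM with Vehicle and 102.9, 69.4 and 111.7 with AG636. The spread within each group was as large as the difference between them (log2 fold change 0.18, SE 0.20, 95% interval -0.26 to 0.62, adjusted p = 0.543).
Dnmt3b was at 41.2, 46.4 and 51.0 CPM with Vehicle and 45.5, 29.6 and 37.6 with AG636. Treated replicate 1 lay inside the Vehicle range and the other two lay below it (log2 fold change -0.30, SE 0.18, 95% interval -0.70 to 0.11, adjusted p = 0.263). The antisense gene Dnmt3aos overlaps Dnmt3a by 133 bases and had 0 counts in all libraries.

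Idh1 (chr1:65158616-65186500, minus strand), which encodes the cytosolic enzyme, varied widely between mice of the same group. It was at 87.8, 120.9 and 158.1 CPM with Vehicle and 155.1, 58.5 and 154.9 with AG636. The means of 122.3 ± 35.2 and 122.9 ± 55.7 CPM (SD, n = 3) were almost equal, but the interval of the log2 fold change ran from -0.72 to 0.74 (estimate 0.01, SE 0.33, adjusted p = 0.986). The interval thus left room for a change of up to about that size in either direction. Without AG636 replicate 2 the estimate was 0.34 (adjusted p = 0.268), and without Vehicle replicate 1 it was -0.19 (adjusted p = 0.750).
Idh2 (chr7:80094846-80115392, minus strand), which encodes the mitochondrial enzyme, was at 236, 315 and 353 CPM with Vehicle and 315, 251 and 348 with AG636. The ranges overlapped almost fully (log2 fold change 0.02, SE 0.17, 95% interval -0.36 to 0.40, adjusted p = 0.950). Nras, the other gene of the model's alleles, averaged 168.8 and 178.5 CPM (adjusted p = 0.677).

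Within each group the lowest Idh1, Idh2 and Dnmt3a value was that of Vehicle replicate 1 or AG636 replicate 2, the libraries with the lowest sum over the progenitor list. This was noticed after the values were seen. Leaving out both libraries gave log2 fold changes of 0.15 for Idh1, -0.01 for Idh2 and 0.23 for Dnmt3a, none of which passed the test (adjusted p 0.542, 0.970 and 0.342). For Tet2, Vehicle replicate 1 was also the lowest of its group, while AG636 replicate 2, at 34.5 CPM, held the middle value.

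**Figure D2:**
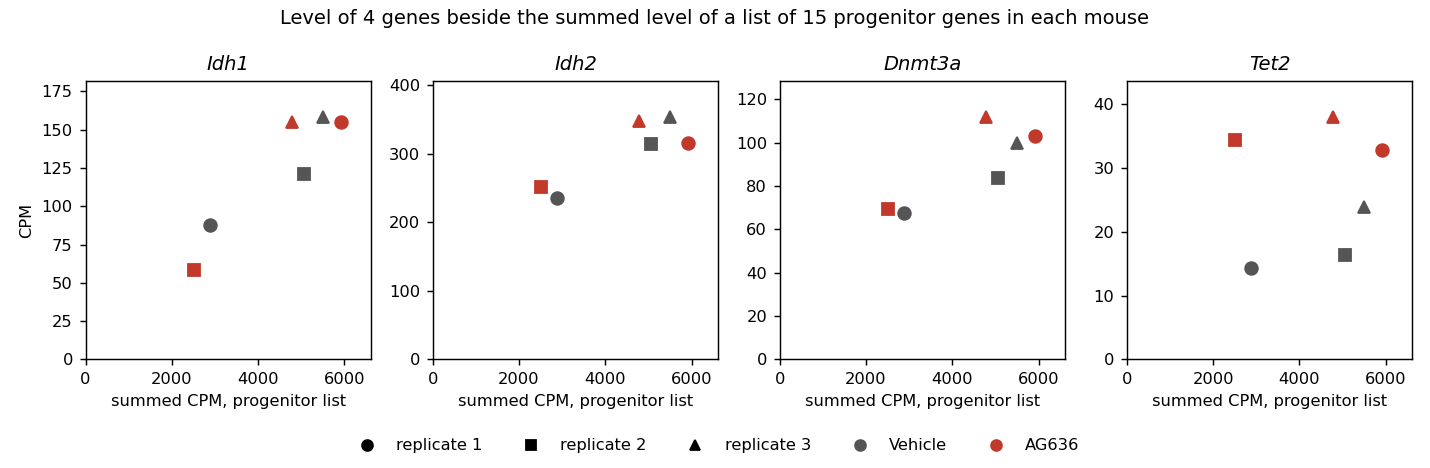
CPM of Idh1, Idh2, Dnmt3a and Tet2 (vertical axes) against the summed CPM of the 15-gene progenitor list (horizontal axes) in the 6 mice. Most of that sum is Mpo and other granule protein genes. All axes are linear and from 0, with Vehicle in grey and AG636 in red. The libraries at a sum of 2875 and 2510 CPM have the lowest Idh1, Idh2 and Dnmt3a values, while Tet2 separates by treatment at both low and high sums.

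Dot1l (chr10:80755206-80795461, plus strand) encodes the only known H3K79 methyltransferase, a cofactor of MLL-fusion leukemias. It was at 174, 163 and 168 CPM with Vehicle and 156, 129 and 155 with AG636. All treated mice were below all controls, with a log2 fold change of -0.20 (SE 0.12, 95% interval -0.47 to 0.07, adjusted p = 0.259). Without Vehicle 1 and AG636 2 together the estimate was -0.09 (adjusted p = 0.700).

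**Figure D3:**
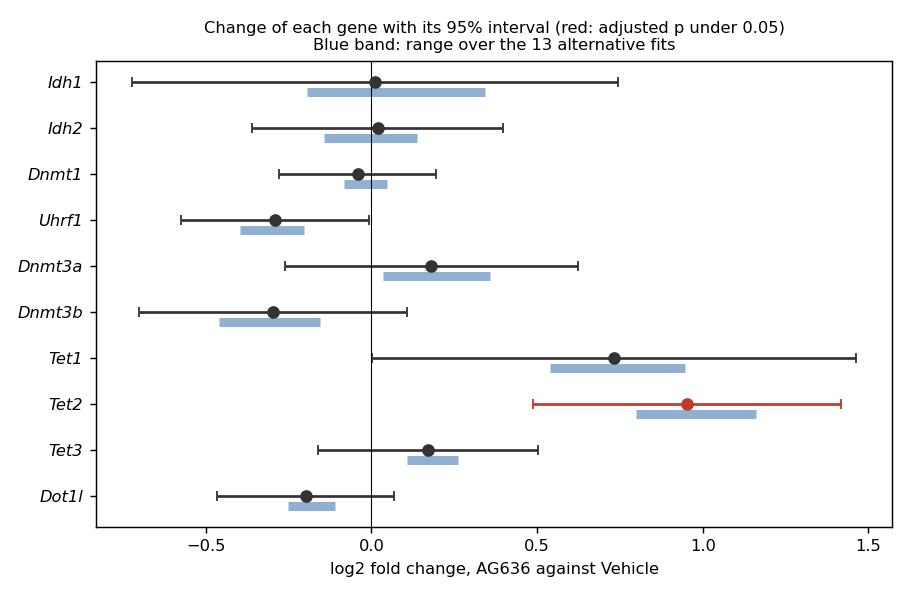
Log2 fold change of each gene, AG636 against Vehicle (horizontal axis), with its 95% interval from the edgeR fit, and below it a blue band for the range over 13 alternative fits. Tet2 (red, 0.95) passed the adjusted threshold, and its band of 0.80 to 1.16 stayed above 0. The bands of Tet1 (0.54 to 0.95), Tet3, Dnmt3a, Dnmt3b, Uhrf1 and Dot1l, none of them called, kept their sign as well. Those of Idh1 (-0.19 to 0.34), Idh2 and Dnmt1 crossed 0.

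Ratios of genes within a mouse do not depend on how libraries are scaled, so 6 pairs were compared. The values are ratios of counts, not of molecules. Tet2 to Tet3 was 0.484, 0.530 and 0.752 with Vehicle and 0.981, 1.04 and 1.005 with AG636. All treated mice were near 1 and all controls below, a log2 difference of 0.80 (exact permutation p = 0.1, adjusted p = 0.2 over 6 ratios). Dnmt3a to Dnmt3b was 1.64, 1.81 and 1.95 with Vehicle and 2.26, 2.34 and 2.97 with AG636. These did not overlap either, although each of the 2 genes overlapped between the groups on its own, and the log2 difference was 0.48 (exact permutation p = 0.1, adjusted p = 0.2). Dnmt1 to Uhrf1 was 1.56, 1.57 and 1.41 with Vehicle and 1.63, 2.08 and 1.72 with AG636, a log2 difference of 0.25 (exact permutation p = 0.1, adjusted p = 0.2). The 0.1 is the smallest p that this design allows.

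The other 3 ratios overlapped between the groups. Dnmt3a to Dnmt1 differed by 0.21 on the log2 scale (exact permutation p = 0.5) and Tet1 to Tet2 by -0.21 (exact permutation p = 0.6). Idh1 to Idh2 differed by -0.11 (exact permutation p = 0.9), and AG636 replicate 2 had the lowest ratio of all mice at 0.234, against 0.373 to 0.492 in the others.

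**Figure D4:**
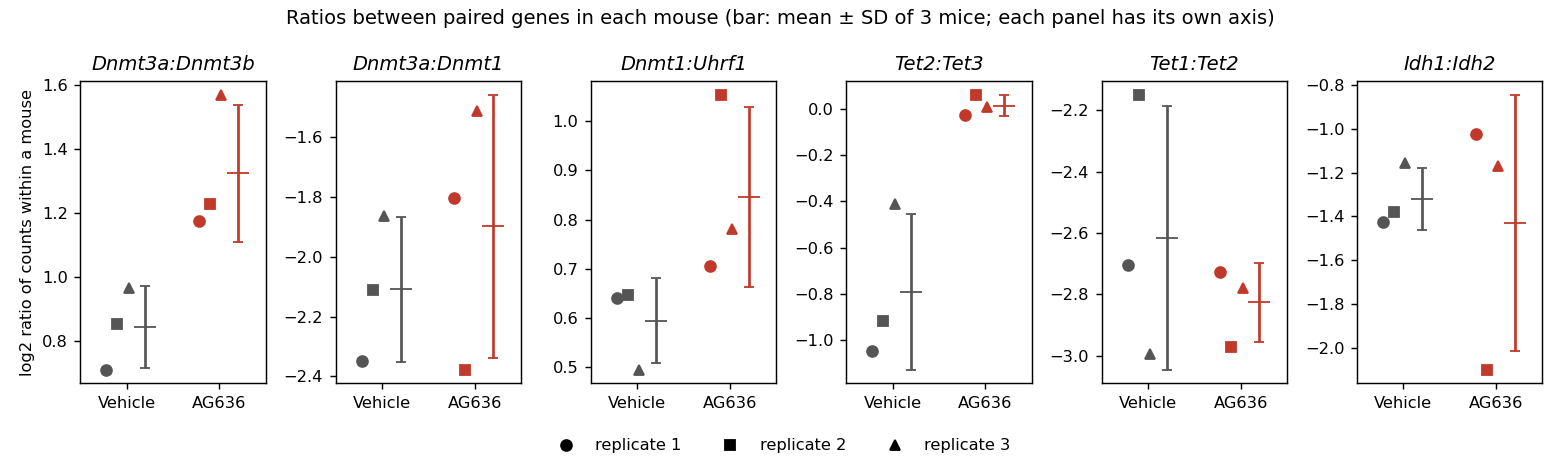
Log2 ratio of counts for 6 gene pairs in each mouse (vertical axes, a separate range in each panel), with Vehicle in grey, AG636 in red and bars for mean ± SD (n = 3). The groups separate for Dnmt3a:Dnmt3b, Dnmt1:Uhrf1 and Tet2:Tet3 and overlap for the other 3 pairs.

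The genes that work with these enzymes were described through 7 lists holding 145 genes, of which 135 were tested. Of these, 14 were called higher and 16 lower, together 22.2% against 21.3% of all genes. Called higher and lower, they numbered 4 and 2 without AG636 3, 4 and 9 without Vehicle 2, 6 and 7 without Vehicle 1, and 6 and 10 without AG636 1. Without Vehicle 1 and AG636 2 together, 8 were called higher and 8 lower. Among the genes named below, Zbtb4, Zbtb38, Apex1, Mdh1, Slc25a1 and Jmjd1c lost their call in that fit. So did Kdm5c, Ell, Aff3, Cdc6, Cdt1 and Mcm5 (adjusted p 0.0524 to 0.189 over these genes). Of the 28 genes named below, 6 were called in every alternative, and these were Gadd45g, Neil3, Kdm5b, Aff4, Mat2a and Adk. The others lost their call without at least 1 library.

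Readers of methylated DNA and cofactors moved both ways, with 3 of 18 higher and 1 lower, together 22.2% against 21.3% of all genes. Their median was 0.08. The methyl-CpG binding zinc finger genes Zbtb4 and Zbtb38 rose, from 2.84, 5.22 and 5.62 to 9.31, 11.5 and 10.3 CPM for Zbtb4 (log2 fold change 1.18, adjusted p = 0.0220) and by 0.54 for Zbtb38 (adjusted p = 0.0303). Cxxc5, which encodes a CXXC protein that binds unmethylated CpG, rose by 0.75 (adjusted p = 0.0150). Trim28, which encodes the KAP1 corepressor, fell by 0.50 (adjusted p = 0.0130). Zbtb4 had 16 to 56 counts per library. It was called in 2 of the 6 fits that left out 1 library, and Zbtb38 in 1. Among genes of excision of oxidised methylcytosine, 3 of 13 were higher and 1 lower, together 30.8%, with a median of -0.17. Gadd45g, which encodes a stress-response protein linked to demethylation, rose from 21.3, 26.1 and 18.1 to 42.3, 60.0 and 49.3 CPM (log2 fold change 1.20, adjusted p = 0.00492). Its relative Gadd45a rose by 0.78 (adjusted p = 0.0292). The glycosylase gene Neil3 rose by 0.72 (adjusted p = 0.0135), while Apex1, which encodes the main abasic-site endonuclease, fell by 0.53 (adjusted p = 0.0177).

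Among genes of the TCA cycle and 2-oxoglutarate metabolism, 2 of 27 were higher and 1 lower, together 11.1% against 21.3% of all genes. Their median was -0.19. Glud1, whose product makes 2-oxoglutarate from glutamate, rose by 0.52 (adjusted p = 0.0314). The cytosolic malate dehydrogenase gene Mdh1 rose by 0.49 (adjusted p = 0.0217), and the citrate carrier gene Slc25a1 fell by 0.61 (adjusted p = 0.0311). Each of these calls was lost without 4 of the 6 libraries in turn, Vehicle 1, Vehicle 2 and AG636 3 among them (adjusted p up to 0.116). Of the 2-oxoglutarate-dependent demethylases, 3 of 22 were higher and 2 lower, together 22.7%, with a median of 0.19. The H3K4 demethylase gene Kdm5b rose from 130, 152 and 142 to 258, 239 and 331 CPM (log2 fold change 0.97, adjusted p = 0.00400). Its relative Kdm5a rose by 0.48 (adjusted p = 0.0288), as did Jmjd1c by 0.44 (adjusted p = 0.0302). The X-linked Kdm5c fell by 0.47 (adjusted p = 0.0261) and the ribosomal oxygenase gene Riox2 by 0.54 (adjusted p = 0.0275), and each of Kdm5a, Jmjd1c, Kdm5c and Riox2 was called in 1 of the 6 fits that left out 1 library. Jmjd1c also lost its call without a filter on low counts (adjusted p = 0.0682), with the replicate number as a block (adjusted p = 0.0539) and without Vehicle 1 and AG636 2 together (adjusted p = 0.107). Riox2 lost it with library size alone (adjusted p = 0.0513) and with the block (adjusted p = 0.0537).

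The S-adenosylmethionine cycle, which supplies the methyl donor, had 4 of 10 genes lower and 0 higher, 40% against 21.3% of all genes. Its median was -0.51. Mat2a, which encodes the enzyme that makes S-adenosylmethionine, fell from 779, 757 and 706 to 489, 422 and 468 CPM (log2 fold change -0.70, adjusted p = 0.00411). The groups were far apart relative to their spread. Adk, which encodes adenosine kinase, fell by 0.94 (adjusted p = 0.0121). Amd1 and Mtap, of the polyamine and methionine salvage branches, fell by 0.99 (adjusted p = 0.0211) and 0.57 (adjusted p = 0.0213). Amd1 was low, at no more than 15 CPM in any mouse, and both were called in 3 of the 6 fits that left out 1 library.

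Partners of DOT1L and the H3K79 pathway had 3 of 17 higher and 1 lower, together 23.5% against 21.3% of all genes. Their median was -0.15. Aff4, which encodes the scaffold of the super elongation complex, rose from 30.9, 36.8 and 40.2 to 58.8, 76.6 and 62.6 CPM (log2 fold change 0.88, adjusted p = 0.00725). Its relative Aff3 rose by 0.44 (adjusted p = 0.0494), and the elongation factor gene Ell by 0.63 (adjusted p = 0.0316). Ell2, of the same family as Ell, fell by 0.84 (adjusted p = 0.0260). Neither Aff3 nor Ell was called when any 1 library was left out (adjusted p 0.0546 to 0.174). With the replicate number as a block both also lost their call (adjusted p = 0.0671 for Aff3 and 0.0550 for Ell), and Aff3 lost it with median-of-ratios size factors (adjusted p = 0.0513) and without a filter (adjusted p = 0.0635).

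Dnmt1 and Uhrf1 are known to be expressed mainly in cycling cells, so S-phase genes are set beside them. Of 28 such genes, 6 were called lower and 0 higher, together 21.4%. Of all genes tested, 21.3% were called, 11% lower and 10.3% higher. The S-phase genes had a median of -0.25, and their summed level was 5144 to 5631 CPM with Vehicle and 4125 to 4914 with AG636. The replication genes Cdc6, Cdt1, Mcm5 and Mcm10 fell by 0.72, 0.63, 0.45 and 0.70 (adjusted p 0.0182, 0.0243, 0.0221 and 0.0115). Without AG636 3 the count was 0, without Vehicle 1 it was 1 and without Vehicle 2 it was 2. Uhrf1 at -0.29 lay near this median and Dnmt1 at -0.04 above it, and the part of S-phase RNA in either was not tested.

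**Figure D5:**
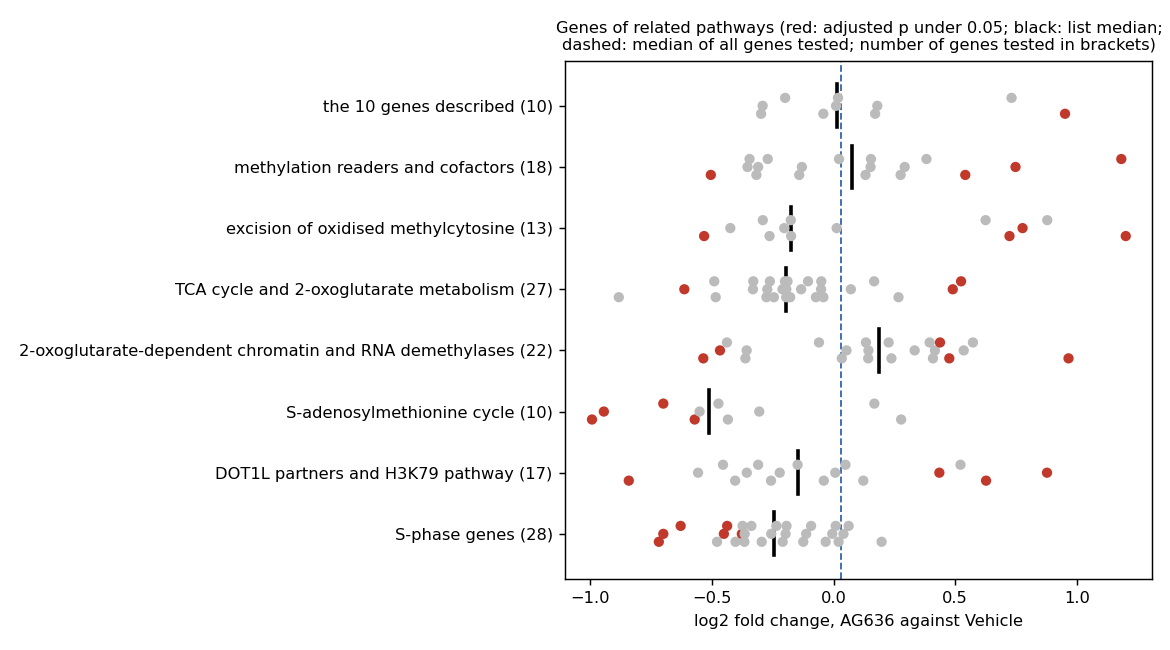
Log2 fold change, AG636 against Vehicle (horizontal axis), of each tested gene of the 10 genes and of 7 related lists (rows), with calls in red, list medians as black bars and the median of all genes tested (0.03) dashed. The S-adenosylmethionine list has the lowest median, -0.51, and the demethylase list the highest, 0.19.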

How the data were processed

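RNA was measured in sorted I1DN cells of 3 Vehicle and 3 AG636 mice, grouped by the submitters' labels. The deposited table holds raw counts per gene. The libraries were made with a QuantSeq 3' mRNA kit, and per the labels and the study's methods the authors trimmed reads with cutadapt 1.9.1, aligned them to mm10 (GRCm38) with HISAT2 2.0.4 and counted with featureCounts of Subread 1.5.0-p3, while the study's text gives other versions of cutadapt and Subread. The annotation, strand setting and treatment of multi-mapping reads are not given in the sources used here. Counts were not divided by length. Levels of different genes are not compared beyond the ratios of counts and the genes described as low. Mean CPM also chose the gene named from each marker list.

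Counts were fitted in R 4.3.3 with edgeR 4.0.16 (filterByExpr, minimum count 10 and minimum total 15, TMM, quasi-likelihood test, Benjamini-Hochberg over 11092 genes, threshold 0.05). Log2 fold changes are AG636 against Vehicle. SE is the fold change divided by the root of F. Ratios used a pseudocount of 0.5. Alternatives were DESeq2 1.42.0, limma 3.58.1 (voom), other scalings and filters, a replicate block and leaving out each library. Scripts were tested on simulated data. Libraries held 4634963 to 7906589 counts, and Tet1 had the fewest of the 10 genes, 127 over all libraries. Libraries of a group differed by more than sampling noise.

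The 10 genes and all lists were chosen with earlier results of these data known. Named were all 10 genes, Nras and up to 4 called genes in each direction of each pathway list. Kit and Itgam, which encode the sort markers, were named too, as were the surface marker genes Cd34, Ly6a and Ptprc. The gene of highest mean CPM in each other marker list was also named. The B cell, T and NK cell, erythroid and neutrophil markers so chosen, Ighm, Nkg7, Hbb-bs and S100a8, were not called (adjusted p 0.209, 0.166, 0.842 and 0.0872). Cd34 and Ly6a were not called either (adjusted p 0.161 and 0.125), while Ptprc was higher by 0.65 (adjusted p = 0.0142).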

Additional observations from a re-analysis of the deposited data

How the results depend on the processing

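Tet2 was the only one of the 10 genes called in any alternative, and 4 of the 6 leave-one-out fits called it (0 to 1 of the 10 genes higher in these fits, 0 lower). Over all genes, leaving out 1 library gave 399 to 1074 called higher and 452 to 1298 called lower, and in the 7 lists 4 to 12 higher and 2 to 16 lower. All of these fits had fewer samples. Library size alone gave 1483 higher and 913 lower over all genes, against 1146 and 1222 with TMM, and moved the median of all genes to 0.12. Without a filter on low counts 25 list genes were called lower, and 3157 genes were called in all. Leaving out Vehicle 1 and AG636 2 together, chosen after seeing the data as the libraries with the lowest sum over the progenitor list, gave 8 list genes higher and 8 lower. The cause was not tested.

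Signs of small estimates reversed. Idh1 was at -0.076 with limma-voom, -0.015 without a filter and -0.074 with the replicate block, and at -0.19 to 0.34 when 1 library was left out. Idh2 was at -0.0087 without a filter and -0.010 without Vehicle 1 and AG636 2 together, and at -0.14 to 0.14 in leave-one-out fits. Dnmt1 was at 0.046 with library size alone and at -0.084 to 0.015 with 1 library left out. Nras ranged from -0.024 to 0.15 with 1 library left out. Hbb-bs ranged from -0.25 to 0.60 in the same way, and Ighm was at -0.057 without Vehicle 1 and AG636 2 together. Among ratios, Tet1:Tet2 ranged from -0.40 to 0.024 and Idh1:Idh2 from -0.31 to 0.23 with 1 library left out.

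Replicate numbers are shared by different mice, so the samples share only a number. Deviations of same-numbered samples correlated at -0.06, -0.18 and 0.23, and 1 of 6 samples correlated best with its own number. With the replicate block 1960 genes were called, 914 higher and 1046 lower, and Tet2 was at 0.97 (adjusted p = 0.0156). Of the 28 named list genes, the block ended the calls of Aff3, Ell, Jmjd1c and Riox2. For the ratios the smallest exact p of 3 pairs is 0.25.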
